A study of Homo sapiens with 4 samples.

Results

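Neuroendocrine differentiation is the change in which a prostate cancer cell takes on the traits of hormone-secreting nerve-like cells. The genes described here are 9 that are commonly read as its markers: CHGA, CHGB and SCG5, NTS, SYP, NCAM1, ENO2, INSM1 and ONECUT2. They were followed through every probe set that the array annotation gives to exactly 1 gene, that gene being among the 9, which came to 21 of 44988 such probe sets and 9 of 18132 genes. None of the 21 probe sets passed the test after PC-3 exosomes, beside 0.258% of all 44988. ENO2, ONECUT2 and the brightest SYP probe set were well lit on every array, while CHGA, SCG5, NTS and INSM1 were dim in both groups.

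The cells were LNCaP, an androgen-responsive human prostate cancer line of luminal type, grown in medium with fetal bovine serum. In 2 samples they had received exosomes, small membrane vesicles, from PC-3, which is an androgen-independent prostate cancer line. In the 2 control samples the treatment text gives PBS, a buffer, and the sample labels list no agent. The labels state neither dose, exposure time nor how the exosomes were prepared. Nothing says that the 2 samples of a group were separate cultures, so the p-values measure only the spread between these samples, which may be technical. The description of the RNA extraction names brain cortex, against the cell line given in every label.

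LNCaP is the line in which this change has been studied most, because withdrawing androgen or raising cyclic AMP makes it grow neurite-like processes and switch on markers. Neuroendocrine cells keep peptides and amines in dense-core granules, which hold chromogranins and the enzymes and chaperones that cut prohormones. The transcriptional repressor REST keeps neuronal genes off in other cells, and factors such as INSM1 and ONECUT2 act on the opposite side.

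The promoter of NTS is shown because the cyclic AMP response element (CRE) is the textbook route from cyclic AMP to granule and peptide genes. It comes from RefSeq, GRCh38.p14, on the + strand, from 250 bases before to 50 bases after the annotated start. The window lies at chr12:85874045-85874344, and its capitals mark CGTCA, the short element TGACG as it reads on the opposite strand.
NTS: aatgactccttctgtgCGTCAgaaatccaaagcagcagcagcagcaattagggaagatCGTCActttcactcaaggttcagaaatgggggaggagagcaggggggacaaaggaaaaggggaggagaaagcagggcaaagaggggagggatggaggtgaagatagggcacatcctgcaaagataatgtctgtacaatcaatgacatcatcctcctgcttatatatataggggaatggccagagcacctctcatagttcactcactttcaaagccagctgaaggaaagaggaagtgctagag

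Promoter windows of 5 members were searched: SCG5, NTS, SYP, ENO2 and ONECUT2. The full CRE, TGACGTCA, searched on both strands, was in 0 of the 5 and in 1.85% of all 35116 windows of that length. The short element TGACG, which the full one contains on each strand, was in 3 of the 5 (SCG5, NTS and ONECUT2) and in 24.6% of all windows. The AP-1 motif TGANTCA was in 2 of the 5, ENO2 and SYP, and in 7.71% of all windows. The NTS window also holds tgacatca, close in letters to the full CRE, which the exact search did not count and the capitals do not mark. A match is a stretch of letters and not a measured binding site.

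The arrays were checked against cell type markers first. The 12 measured luminal prostate genes had mean intensities from 475 for SLC45A3 to 14098 for KLK3, which encodes PSA. In a fit of 1 probe set per gene 0 of the 12 passed the test, beside 0.888% of all genes. TRPM8, a cation channel, had the smallest p of that list, with a log2 fold change of 0.31 (SE 0.069, limma adjusted p = 0.0972), and its other probe sets had -0.01 and 0.02. It passed when genes below the median of brightness were left out (limma adjusted p = 0.0220), but was 0.11 as the mean of its probe sets (limma adjusted p = 0.716) and 0.19 with the arrays centred on their poly-A spike-ins (limma adjusted p = 0.154). TMPRSS2, an androgen-induced protease, had 0.14 (SE 0.036, limma adjusted p = 0.173). Its other probe sets lay the same way, at 0.20 and 0.29, and did not pass either. The 9 measured markers of neurons ran from 26.0 to 332 and the 9 of glia from 21.8 to 816, and no value in the table was 0. Among neuron markers, the glutamate transporter SLC17A7 had a log2 fold change of -0.12 (SE 0.083), and the kinase CAMK2A had -0.13 (SE 0.091). The other SLC17A7 probe sets went both ways, from -0.19 to 0.13, and the other CAMK2A probe set had -0.002. The sum over the neuron markers was 1081 to 1131 with exosomes, against 1099 to 1185 with PBS. The glial sum was 1771 to 1781 with exosomes and 1614 to 1686 with PBS. None of the 9 glial genes passed and the sum was not tested. MBP, a myelin protein that other cells also express, was the brightest glial gene, with means of 867 with exosomes and 764 with PBS. Its log2 fold change was 0.18 (SE 0.051, limma adjusted p = 0.201), while the astrocyte filament GFAP had 0.12 (SE 0.074). The 8 GFAP probe sets went both ways, from -0.17 to 0.20. The part of these marker levels in the neuroendocrine values was not tested. The 9 measured PC-3 markers ran from 17.8 for CAV2 to 538 for VIM, with sums of 1025 to 1045 with exosomes and 1041 to 1054 with PBS. VIM, an intermediate filament, had a log2 fold change of -0.07 (SE 0.067) and CAV2, a caveolar protein, 0.08 (SE 0.081). Lower RNA per cell and fewer cells of a type cannot be told apart in such bulk samples.

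Whether PC-3 exosomes moved the neuroendocrine markers of LNCaP was asked probe set by probe set. The quantity tested was the difference of log2(intensity + 1), exosomes minus PBS, with limma fitted on all 44988 probe sets and p-values adjusted over all of them. An adjusted p under 0.05 was called past the threshold. Of all probe sets 0.258% passed, 107 or 0.238% higher and 9 or 0.0200% lower, and of the members 0 of 21 in either direction. At an unadjusted p under 0.05 there were 2 members, 1 higher and 1 lower, or 9.52% of them, beside 8.87% of all probe sets, of which 4.73% were higher and 4.14% lower. The groups did not overlap in 8 of the 21, or 38.1%, beside 37.7% of all. In those 8 the exosome arrays were the higher ones in 4, beside 17.2% of all probe sets, and the lower ones in 4, beside 20.5%. The median log2 fold change was 0.02 over the 21 and -0.01 over all, and the SD of the log2 fold changes was 0.12 in both. All 3 shares lay near those of the whole table. The signs also rest on the scaling: as deposited 11 of the 21 lay above 0 and 10 below, and with the arrays centred on their poly-A spike-in probe sets every value was 0.12 lower, which left 3 above 0 and 18 below. Under that scaling the median of all probe sets was -0.13.

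**Figure D1:**
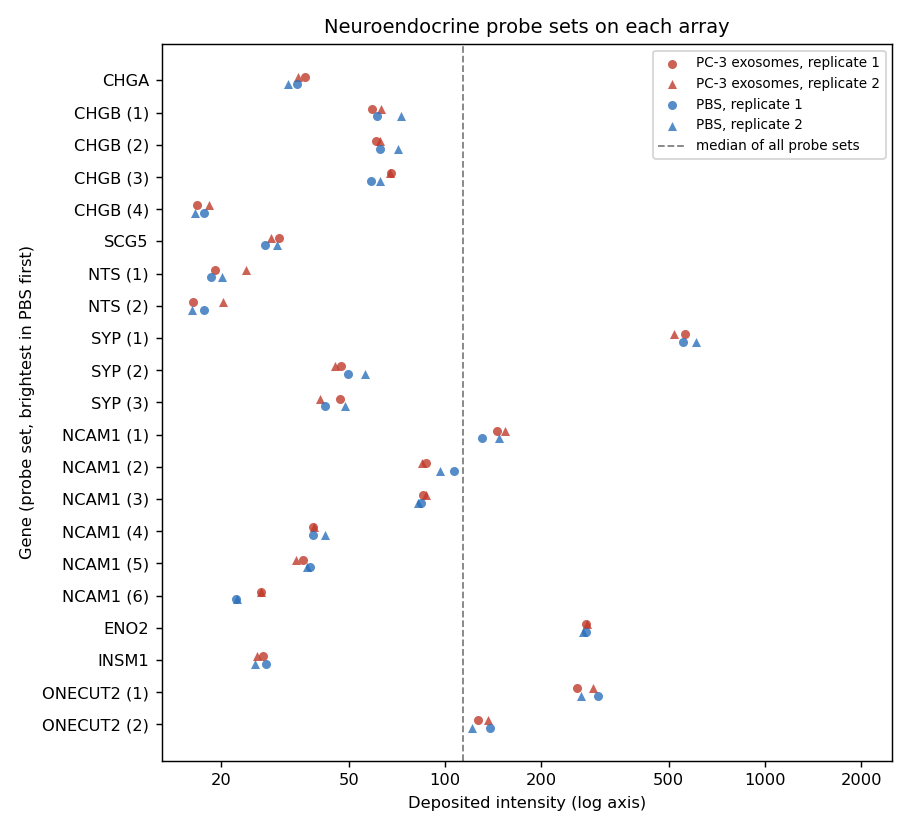
Deposited intensity (log axis) of the 21 neuroendocrine probe sets on the 2 PC-3 exosome arrays (red) and the 2 PBS arrays (blue), 1 point per array, with the replicate shown by the marker shape and the median of all probe sets as a dashed line. In every row the points of both groups lie close together, and 5 of the 21 rows lie right of the line.

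The granule proteins were dim and moved little. CHGA encodes chromogranin A, the granule protein measured in blood as a neuroendocrine tumour marker. Its single probe set read 36.6 and 34.7 with exosomes, against 34.4 and 32.4 with PBS. The exosome arrays lay just above the PBS arrays, by a log2 fold change of 0.09 (SE 0.084, limma adjusted p = 0.821). SCG5 encodes 7B2, the chaperone of the prohormone convertase PC2. It read 30.2 and 28.6 with exosomes and 27.4 and 29.9 with PBS, so the groups overlapped (log2 fold change 0.04, SE 0.085, limma adjusted p = 0.952).

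CHGB, chromogranin B, was seen by 4 probe sets that did not point one way. Probe set 11717476_a_at, the brightest over the 4 arrays, read 60.7 and 62.4 with exosomes, against 62.6 and 71.1 with PBS. Probe set 11717474_a_at read 67.9 and 67.2 with exosomes, against 58.7 and 62.4 with PBS. The first was thus lower on both exosome arrays and the second higher, with log2 fold changes of -0.11 (SE 0.096) and 0.16 (SE 0.086). The remaining CHGB probe sets had -0.13 and 0.03, and in both the groups overlapped. The x in the name of the former, 11717477_x_at, marks probes that may also match related sequences. The CHGB adjusted p ran from 0.657 to 0.950 (limma).

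NTS encodes the precursor of neurotensin, a peptide of gut endocrine cells and neurons that prostate cancer cells can also release. Both of its probe sets were among the dimmest of the 21. Probe set 11719685_at read 19.1 and 23.9 with exosomes and 18.6 and 20.1 with PBS, and 11719684_a_at read 16.3 and 20.2 with exosomes and 17.6 and 16.2 with PBS. In each, exosome replicate 2 stood highest and the other 3 arrays lay together, so the groups overlapped. The log2 fold changes were 0.14 (SE 0.11) and 0.10 (SE 0.10), with limma adjusted p of 0.777 and 0.856. Without exosome replicate 2 they were -0.02 and -0.05.

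SYP encodes synaptophysin, a membrane protein of small secretory vesicles. Its brightest probe set, 11725033_a_at, was the brightest of the 21 and stood at the 81.3 percentile of all probe sets. It read 562 and 520 with exosomes and 553 and 610 with PBS, and the groups overlapped (log2 fold change -0.10, SE 0.073, limma adjusted p = 0.744). Probe set 11725034_at read 47.2 and 45.2 with exosomes and 49.7 and 56.4 with PBS. Here both exosome arrays were the lower ones, with a log2 fold change of -0.19 (SE 0.096, limma adjusted p = 0.617). The third SYP probe set had -0.05 with overlapping groups. All 3 lay below 0, PBS replicate 2 was the brightest array in each, and without it their log2 fold changes ran from -0.10 to 0.05.

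NCAM1 encodes CD56, a cell adhesion molecule of neural and neuroendocrine cells, and had the most probe sets, 6. Of the 6, 3 lay above 0 and 3 below. The 2 members with an unadjusted p under 0.05 were both NCAM1 probe sets, and they moved in opposite directions. Probe set 11727915_a_at read 26.6 and 26.6 with exosomes and 22.2 and 22.3 with PBS. Its log2 fold change was 0.25 (SE 0.074, limma adjusted p = 0.375), the highest of the 21, at the 13.2 percentile of brightness. Probe set 11727914_s_at read 86.9 and 84.8 with exosomes and 107 and 96.6 with PBS. Its log2 fold change was -0.24 (SE 0.089, limma adjusted p = 0.495), the lowest of the 21. The s in its name marks a probe set that the array maker expected to match transcripts of more than a single gene. The brightest NCAM1 probe set, 11730720_a_at, read 145 and 154 with exosomes and 130 and 147 with PBS, so the groups overlapped (log2 fold change 0.11, SE 0.091). The other NCAM1 probe sets had log2 fold changes from -0.09 to 0.05.

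ENO2 encodes neuron-specific enolase, the neuronal form of a glycolytic enzyme. It read 277 and 277 with exosomes, against 277 and 270 with PBS. The 4 arrays were nearly alike, with a log2 fold change of 0.02 (SE 0.067, limma adjusted p = 0.973) and a 95% interval from -0.13 to 0.18. This was the narrowest interval of the 21.

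Of the transcription factors, ONECUT2 drives neuroendocrine plasticity and suppresses androgen receptor activity in prostate cancer, and INSM1 is a zinc-finger factor of endocrine progenitors. ONECUT2 was well lit: probe set 11728923_at read 258 and 290 with exosomes and 300 and 267 with PBS, and 11728922_at read 127 and 136 with exosomes, against 138 and 121 with PBS. The groups overlapped in both, with log2 fold changes of -0.05 (SE 0.090) and 0.02 (SE 0.094) and limma adjusted p of 0.935 and 0.982. The s in the name of the only INSM1 probe set, 11757864_s_at, carries the same caution as for NCAM1. INSM1 was dim, at 27.0 and 25.8 with exosomes and 27.6 and 25.5 with PBS. Its log2 fold change of -0.01 (SE 0.083, limma adjusted p = 1.00) was the one nearest to 0.

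**Figure D2:**
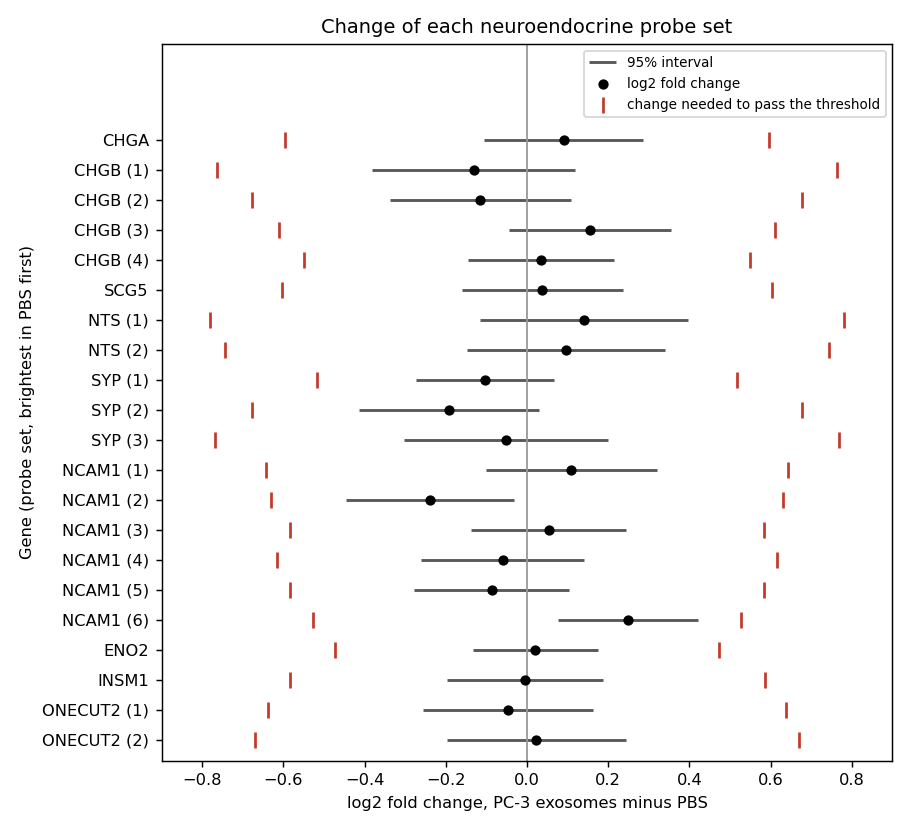
Points show the log2 fold change of each of the 21 neuroendocrine probe sets, PC-3 exosomes minus PBS, with its 95% interval from the limma fit (n = 2 arrays a group). Red ticks mark the change each would have needed to pass the threshold, and every point lies inside its ticks. Probe sets are numbered from the brightest in PBS.

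The intervals bound the changes these arrays leave room for under the deposited scaling. Over the 21 probe sets the 95% intervals, which are not adjusted for the number of probe sets, ran from -0.45 to 0.42 on the log2 scale. A rise of more than 1.34-fold and a fall of more than 1.36-fold therefore lay outside all of them. The interval held 0 in 19 of the 21. These bounds hold for the deposited scaling only: with spike-in centring every value was 0.12 lower, or -0.36 for NCAM1 probe set 11727914_s_at. To pass the threshold a member would have needed a log2 change between 0.47 for ENO2 and 0.78 for the brighter NTS probe set, or 1.39-fold to 1.72-fold. A real change can be compressed where a probe set reads mostly background, and 10 of the 21 lay below the mean of the background control probe sets (5.65 on the log2 scale). Those controls themselves ran from 10.4 to 3750 in intensity, with a median of 18.66 to 19.55 per array, so their mean sets no limit. Both NTS probe sets, at 16.2 to 23.9, lay near that median, while CHGA, at 32.4 to 36.6, lay above it. Neither the mean nor the median can separate a low level from no transcript for a single probe set.

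**Figure D3:**
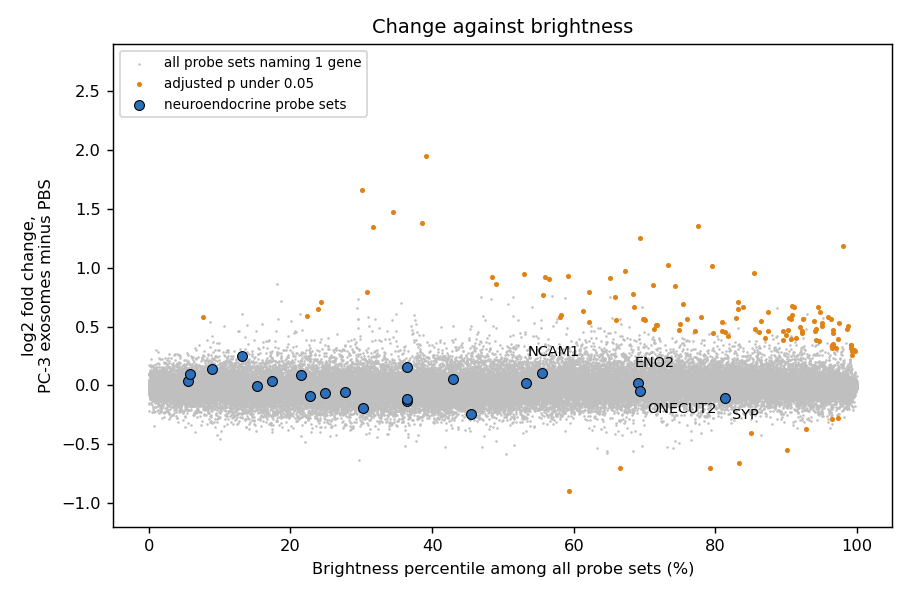
Each point is a probe set that names 1 gene, placed by its brightness percentile over all 44988 (x) and its log2 fold change, PC-3 exosomes minus PBS (y). The 21 neuroendocrine probe sets (blue) lie within the grey band of all probe sets from -0.24 to 0.25, and the 116 probe sets past the threshold are orange.

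The differences between arrays of the same group were as large as those between groups. Over the brightest probe set of each of the 9 genes, the exosome replicates differed from each other by 0.10 on average (absolute log2 difference) and the PBS replicates by 0.13. For the 4 pairs made of an exosome and a PBS array this average was 0.08 to 0.12. In a fit with the brightest probe set for each gene, 0.888% of 18132 genes passed, 127 or 0.700% higher and 34 or 0.188% lower, and of the members 0 of 9. At an unadjusted p under 0.05 there were 0 members, beside 10.9% of all genes, 5.76% higher and 5.16% lower. Their adjusted p ran from 0.651 for SYP to 0.994 for INSM1 (limma).

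The wider programme was read from 6 lists of other neuroendocrine genes in that gene fit. Of 110 measured genes 0 rose and 2 fell, HES6 and PEG10. Their p-values, like all in this fit, were adjusted over the 18132 genes. Of all genes 0.188% passed in the lower direction and 0.700% in the higher. At an unadjusted p under 0.05 there were 5 higher and 11 lower of the 110, beside 1045 (5.76%) and 935 (5.16%) of all 18132 genes. The lower share of the 110 was thus above that of all genes and the higher share below it, which was not tested. The median log2 fold change of the 110 was -0.01, as over all genes.

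Among neuroendocrine transcription factors 0 of 18 rose and 1 fell, with a median of -0.03. HES6, a member of the Hes family that promotes neuronal differentiation and has been tied to aggressive prostate cancer, read 1838 and 1803 with exosomes and 2139 and 2177 with PBS. Both exosome arrays lay below both PBS arrays, and HES6 fell by 0.25 on the log2 scale (SE 0.043, limma adjusted p = 0.0415). Its single probe set did not pass in the probe set fit (limma adjusted p = 0.117). ONECUT1, the relative of ONECUT2, had the next smallest p, at -0.22 (SE 0.13, limma adjusted p = 0.596).

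Among repressors and chromatin factors 0 of 20 rose and 1 fell, with a median of -0.02. PEG10, a retrotransposon-derived gene that is switched on in neuroendocrine prostate cancer, read 530 and 535 with exosomes and 658 and 668 with PBS. It fell by 0.31 on the log2 scale (SE 0.055, limma adjusted p = 0.0389). The same probe set did not pass in the probe set fit (limma adjusted p = 0.112). The s in the name of this probe set, 11757759_s_at, carries the same caution as for NCAM1. The other PEG10 probe sets had log2 fold changes of 0.00 and -0.12, and as the mean of its 3 probe sets PEG10 had -0.14 (limma adjusted p = 0.493). Neither HES6 nor PEG10 passed in any of the 4 fits on 3 arrays, where their log2 fold changes ran from -0.26 to -0.23 and from -0.33 to -0.30. Neither passed with the replicate number as a block (limma adjusted p = 0.210 and 0.212). AURKA, the mitotic kinase that stabilises N-Myc, had -0.17 (SE 0.044, limma adjusted p = 0.155), and it passed at -0.30 with spike-in centring (limma adjusted p = 0.00798). REST, singled out after its values were seen, read 170 and 167 with exosomes and 168 and 169 with PBS, a log2 fold change of -0.002 (SE 0.073, limma adjusted p = 0.998).

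None of the 14 genes of secretory granules and hormone processing passed, with a median of 0.02. PTPRN2, a granule membrane phosphatase relative, had 0.31 (SE 0.10, limma adjusted p = 0.272) and PAM, which amidates peptides, 0.23 (SE 0.078, limma adjusted p = 0.299). Their other probe sets did not follow: PTPRN2 had -0.08 and 0.04 there, and PAM -0.09 and 0.05. SCGN, the calcium-binding protein secretagogin, singled out after its values were seen, lay the other way at -0.25 (SE 0.086, limma adjusted p = 0.320). Among vesicle release genes 0 of 15 passed and the median was 0.01. There UNC13A, a priming factor, had -0.17 (SE 0.087) and the vesicle protein SV2A had -0.15 (SE 0.12), with -0.06 and 0.15 in its other probe sets. Among neuropeptides, amines and their receptors 0 of 23 passed, with a median of -0.01. GAL, the precursor of galanin, was bright, at 6744 and 6630 with exosomes and 6962 and 7314 with PBS. Its log2 fold change was -0.09 (SE 0.038, limma adjusted p = 0.412), and CALCA, the calcitonin gene, had -0.19 (SE 0.085, limma adjusted p = 0.454).

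In the list of neuronal cytoskeleton and other neuron-type genes 0 of 20 passed, with a median of -0.03. TUBB3, the neuronal beta-tubulin, had the highest log2 fold change of the 110 genes. Its single probe set read 324 and 294 with exosomes and 250 and 226 with PBS, so the groups stood apart (log2 fold change 0.38, SE 0.081, limma adjusted p = 0.0901). TUBB3 passed when genes below the 30th percentile or below the median of brightness were left out (limma adjusted p = 0.0467 and 0.0205). It did not pass with spike-in centring (0.25, limma adjusted p = 0.151), with the replicate number as a block (limma adjusted p = 0.215) or by eBayes without a trend (limma adjusted p = 0.253). In the 4 fits on 3 arrays TUBB3 ran from 0.30 to 0.45 (limma adjusted p from 0.142 to 0.489). The x in the name of its probe set, 11754593_x_at, marks probes that may also match related sequences. STMN1, a microtubule regulator high in dividing cells, had -0.14 (SE 0.034, limma adjusted p = 0.140). Its other probe sets also lay below 0, from -0.24 to -0.03, and none passed in the probe set fit (limma adjusted p from 0.177 to 0.968).

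**Figure D4:**
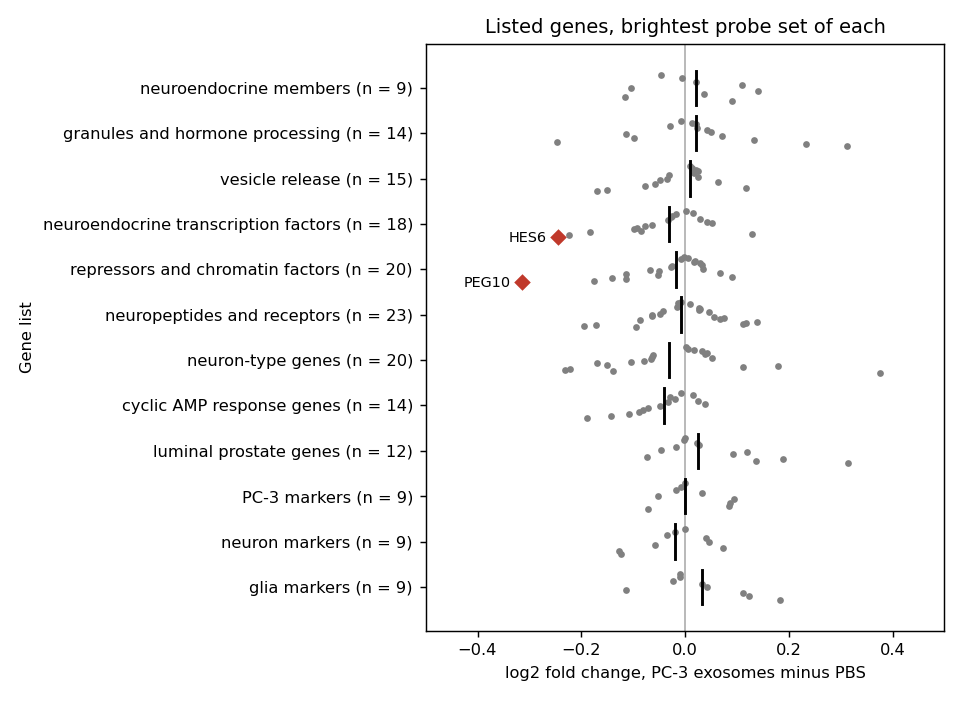
Log2 fold change, PC-3 exosomes minus PBS, of the 9 neuroendocrine members and of the listed genes, each by its brightest probe set, with 1 point per gene and a black bar at each list's median. Red diamonds mark the 2 genes past the threshold, HES6 and PEG10, both below 0.

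A list of cyclic AMP response genes was also read, since NTS carries the short element shown above. That element is in 24.6% of all windows, and its use in NTS was not tested. It holds early targets such as FOS and NR4A1 and also CREB1, CRTC1 and CRTC2, which carry the signal to promoters. Of 14 measured, 0 passed in either direction and 0 had an unadjusted p under 0.05. Their median log2 fold change was -0.04, and 11 of the 14 lay below 0, beside a median of -0.01 and 10154 below 0 among all 18132 genes. PPARGC1A, a coactivator of mitochondrial genes, had -0.19 (SE 0.10, limma adjusted p = 0.552) and PDE4D, a phosphodiesterase that degrades cyclic AMP, -0.14 (SE 0.095, limma adjusted p = 0.646). The other probe sets ran from -0.01 to 0.01 for PPARGC1A and from -0.35 to 0.07 for PDE4D.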

How the data were processed

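Expression was measured in 4 samples of LNCaP with Affymetrix arrays, 2 in each group. The deposited values are normalized intensity values on a linear scale, 1 per probe set, and both MAS5 and RMA appear in the submitters' processing notes, with no role, order or version; the genome build is not given in the sources used here. Median intensity was 113 to 114 per array; precision is limited by the 4 arrays. Of 49395 probe sets 102 were controls, 44988 named 1 gene, 1832 several and 2473 none; the last 2 kinds were left out.

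Values were taken to log2(value + 1) and fitted with limma 3.58.1 in R 4.3.3 (eBayes with a trend, two-sided, Benjamini-Hochberg). The probe set fit had 2 residual and 5.65 prior degrees of freedom. An exact permutation test of 2 against 2 arrays cannot go below 0.333, so each p rests on the variance model. The fit was tested on simulated data.

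The members and lists were chosen with earlier results of these data known, so no p over a list was computed. Named from each list were up to 4 genes past the threshold, and, where fewer than 2 passed, the 2 with the smallest p; names outside this rule are marked or end a range. In the lists 117 neuroendocrine genes stood and 110 were measured; the rest are not analysed here. Some promoter windows are not reported here. The labels do not explain the replicate numbers, so no block was used. Same-numbered replicates deviated from their group means with a correlation of -0.04. Alternatives covered normalization, pseudocount, filters, variance model, gene summary, threshold, block and each array left out. Figures were drawn with matplotlib 3.10.9.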

Additional observations from a re-analysis of the deposited data

How the results depend on the processing

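Of the 21 member probe sets 0 passed in either direction under every alternative run, and likewise 0 of the 9 member genes; over the alternatives the smallest adjusted p of any member was 0.112 (limma), for an NCAM1 probe set with the arrays centred on their 27 poly-A spike-in probe sets. That centring moved the median of all 18132 genes (log2 fold change) from -0.01 to -0.14 and of the 9 member genes from 0.02 to -0.10, and 14.5% of the called genes were then higher in place of 78.9% (probe sets 14.6% in place of 92.2%). The filters at the 30th percentile and the median kept 11 and 5 of the 21 member probe sets.

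The counts over the whole table moved more. Probe sets higher and lower, 107 and 9, became 169 and 26 with quantile normalization, 185 and 34 with the filter at the median, 185 and 27 at an adjusted p under 0.1, 10 and 0 by eBayes without a trend, and 0 and 0 with the replicate block; lower ones were 913 with spike-in centring and 15 with the filter at the 30th percentile. With an array left out they were 0 to 4 higher and 0 lower. Genes higher and lower, 127 and 34, became 213 and 84 with the filter at the median, 203 and 69 at an adjusted p under 0.1, 69 and 407 with spike-in centring, 18 and 3 by eBayes without a trend, and 2 and 0 with the replicate block; lower ones were 69 with quantile normalization and 57 with the filter at the 30th percentile. With an array left out they were 28 to 40 higher and 4 to 7 lower.

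Of the other neuroendocrine genes, 0 higher and 2 lower, 1 was higher with either filter and at an adjusted p under 0.1 (TUBB3), and 0 were lower by eBayes without a trend, with the replicate block and with any array left out; 1 was lower with genes as the mean of their probe sets. Signal near background limits what the dim members can show, and compression of changes there was not measured. The cause of these moves was not tested.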

Other observations

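Some probe sets held exactly the same deposited value on different arrays. The ENO2 value of exosome replicate 1 was that of PBS replicate 1. Between any pair of arrays 196 to 281 of the 49395 probe sets had an identical value, and 4.09% to 4.65% of the values of an array occurred on the other. With the values of each array sorted, the largest gap at the same rank was 0.052 to 0.071 (log2) over the pairs of arrays.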
